A study of Mus musculus with 24 samples.

Results

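The transcripts described here are those of the hypothalamus of *b6/b6* mice, taken as the 12 SAGE-Seq libraries labelled *b6/b6* among the 24 libraries of the series. The 12 animals were F2 mice of a subcongenic cross in which a segment of Chr 17 segregated, and none of them was recombinant within it. They carried C57BL/6J (*b6*) alleles on both copies of the segment and were also *b6/b6* over the rest of the genome. The adult male mice, 10 to 16 weeks old at the start of phenotyping, had chosen for 10 d between a carbohydrate/protein and a fat/protein diet, and these 12 were drawn from the 25% of *b6/b6* animals that ate the fewest carbohydrate calories. Their carbohydrate/protein intake summed to 27.4 to 41.0 kcal, with a median of 36.0, and their total intake to 94.8 to 120.2 kcal. After at least 2 weeks on chow the same diets were given again for 48 h, and tissue was taken after a 4 h fast. The results therefore hold for hypothalami of low carbohydrate eaters of this cross under those diets. Genes were ranked by mean normalized count, which is the number of tags of a gene in a library divided by the size factor of that library, and by the coefficient of variation (CV, the SD over the mean) across the 12 mice. The table lists 13998 genes, and 13997 had a mean above 0 in *b6/b6* mice. The exception was *LOC641240*, at 0 tags in every *b6/b6* mouse.

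The hypothalamus is a collection of small nuclei at the base of the forebrain. Its neurons release peptides that govern feeding, drinking, growth, reproduction and the response to stress, and most of these peptides are made by few cells in narrowly bounded places. Neurons, astrocytes, oligodendrocytes, microglia and vessel cells all add to RNA from the whole tissue, so that fewer cells of a type and less RNA per cell cannot be told apart. The labelled tissue was checked against its markers, and transcripts of 26 of the 28 hypothalamic peptide and secretory granule genes searched for were in the table. All 12 mice had *Pmch*, *Agrp*, *Pomc*, *Hcrt* and *Trh* tags. Transcripts of *Sst* and *Pdyn* were not analysed here.

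SAGE-Seq counts a short tag that starts at the last CATG, the site cut by the enzyme NlaIII, before the 3′ end of a transcript. A transcript gives 1 tag whatever its length, so counts were not divided by length. In annotated transcripts (GENCODE M21, GRCm38) matched to 13112 of the genes, the last CATG lay a median of 155 bases from the end. In 412 of these genes the full tag was also held by another gene, and not every such gene is marked below. The tag sequences at that site are shown for transcripts on which the rankings turn, with the CATG in capitals and the gene position in GRCm38.p6 after RefSeq. The first 3 belong to abundant or steady transcripts. The following 4 belong to *Npy*, whose CV was the highest of the peptide genes, and to members of the most variable lists, and in each the last CATG was so close to the end that a 27-base tag could not be completed within the annotated transcript. The last pair shows the same 27 bases in both alpha globin genes.
*Hspa8*, chr9:40801276-40805202: CATGgaataataaaactatttaaattg
*Cpe*, chr8:64592542-64693109: CATGatcctggtaatgcactttggatg
*Canx*, chr11:50293957-50325673: CATGccagtagtactcttctattgtcc
*Rps4x*, chrX:102184941-102189391: CATGgtgaaactac
*Tufm*, chr7:126487271-126490731: CATGgataactca
*Ist1*, chr8:109671321-109693297: CATGtcctgctttc
*Npy*, chr6:49822710-49829507: CATGcattcaaaa
*Hba-a1*, chr11:32283672-32284486: CATGcccttcttctctcccttgcacct
*Hba-a2*, chr11:32296492-32297310: CATGcccttcttctctcccttgcacct

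The libraries held 7754202 to 13082873 tags per mouse, with a median of 10032338.5. Of the 12 libraries, those of mice 6 and 12 stood apart. Over genes with a mean of at least 100, log2 values of these 2 mice correlated with each other at r = 0.971 and with the other 10 mice at 0.70 to 0.853, while the other 10 correlated among themselves at 0.867 to 0.978. Both mice exceeded all 10 others in 3136 genes (22.4%) and fell below all 10 in 2461 genes (17.58%). When libraries were scaled to their total of tags instead, these counts were 4199 and 1587. Mice 6 and 12 had study numbers of 42 and 27, among the 5 mice with numbers from 27 to 109, whereas the other 7 mice had numbers from 251 to 364. The labels name no batch of libraries, and the part of the study number in this contrast was not tested. The main rankings by spread are therefore given for all 12 mice and for the 10 mice without this pair, which was set aside after the data had been seen. Nothing in the labels says more of how the tissues were taken than 1 library for each animal, so that spread between mice includes that between dissections and between libraries.

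A few transcripts held a large share of all tags. The 25 most abundant genes accounted for 11.63% ± 1.12 (SD, n = 12 mice) of normalized counts and the 50 most abundant for 16.84% ± 1.37. The mean of *Hspa8*, at 150950, was 970 times the median gene's mean of 155.6. The 597 most abundant genes together reached 50% of all counts, and in single mice 473 to 759 genes were needed. Only *Hspa8* and *Cpe* held at least 1% each.

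*Hspa8*, the constitutive heat shock cognate that folds proteins and uncoats clathrin vesicles, ranked first. Its normalized count was lowest at 102097, had a median of 146455 and reached 205482, which gave a mean of 150950 ± 35089 and a CV of 0.23. It was the most abundant transcript in 11 of the 12 mice, the exception being mouse 4, where *Cpe* led with 118160. *Cpe* encodes carboxypeptidase E, which trims peptide hormone precursors in secretory granules. Its values ran from 41019 through a median of 105437 to 154988, with a mean of 104511 ± 35741. Mice 6 and 12, at 43265 and 41019, were the low pair, and in the other 10 mice no value of *Cpe* was below 91111. Without that pair its CV fell from 0.34 to 0.20.

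Some of the 25 encode proteins of energy supply and proton transport. *Cox4i1*, a subunit of cytochrome c oxidase, ran from 53164 to 87414 with a median of 70262 and a CV of 0.17. *Cox8a*, a small subunit of the same enzyme, had a mean of 52591 and a CV of 0.39. *Atp5b*, the catalytic beta subunit of ATP synthase, averaged 25010 ± 9614. *Atp6v1b2*, a subunit of the proton pump that acidifies vesicles, averaged 24353 ± 6782. It was the last gene within the list, and the gene just outside was *Psap*, the precursor of the lysosomal saposins, at 24057.

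*Calm2* and *Calm3* encode calmodulin, a calcium sensor, and the first was among the 25. *Calm2* averaged 56546 ± 21568 and *Calm3* 4131 ± 1132. The values of *Calm2* were 59537 to 82170 in 8 mice, 44480 in mouse 6 and 38079 in mouse 12, and 23170 and 14115 in mice 2 and 9. For *Calm3* the low value was 1382 in mouse 7, with the other mice at 3395 to 5584. The low values of these genes were thus in different animals.

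The remaining abundant transcripts encode proteins of membranes, signalling and gene expression. They include *Ppia*, the cyclophilin A prolyl isomerase (mean 53628), *Ndrg2*, an astrocyte protein (51847), the RNA helicase *Ddx5* (47196), *Maged1* (46526), the membrane protein *Itm2c* (45307), basigin (*Bsg*, 42718), *6330403K07Rik* (41682) and the ribosomal protein gene *Rpl9* (39723). Further down came the desaturase *Scd2* (31757), the 14-3-3 protein gene *Ywhah* (31175), the stimulatory G protein subunit *Gnas* (30147), the reticulons *Rtn1* (29817) and *Rtn3* (27701), neurochondrin (*Ncdn*, 28076), *Sparcl1* (26219) and *Bex2* (25447). *Rtn1* had the lowest CV of the 25, 0.12, and *Gnas* the highest, 0.54. *Gnas* ranked between 4 and 304 in single mice. It stood at 41186 to 49809 in mice 3, 6, 7, 9, 11 and 12 and at 5602 to 24426 in mice 1, 2, 4, 5, 8 and 10, with no value between. The mice with high *Gnas* were the 5 with low study numbers and mouse 3, whose number of 251 came next. Their study numbers thus ran from 27 to 251 and those of the mice with low *Gnas* from 288 to 364. Within the study number sets the CV of *Gnas* was 0.34, and the part of the study number was not tested.

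**Figure D1:**
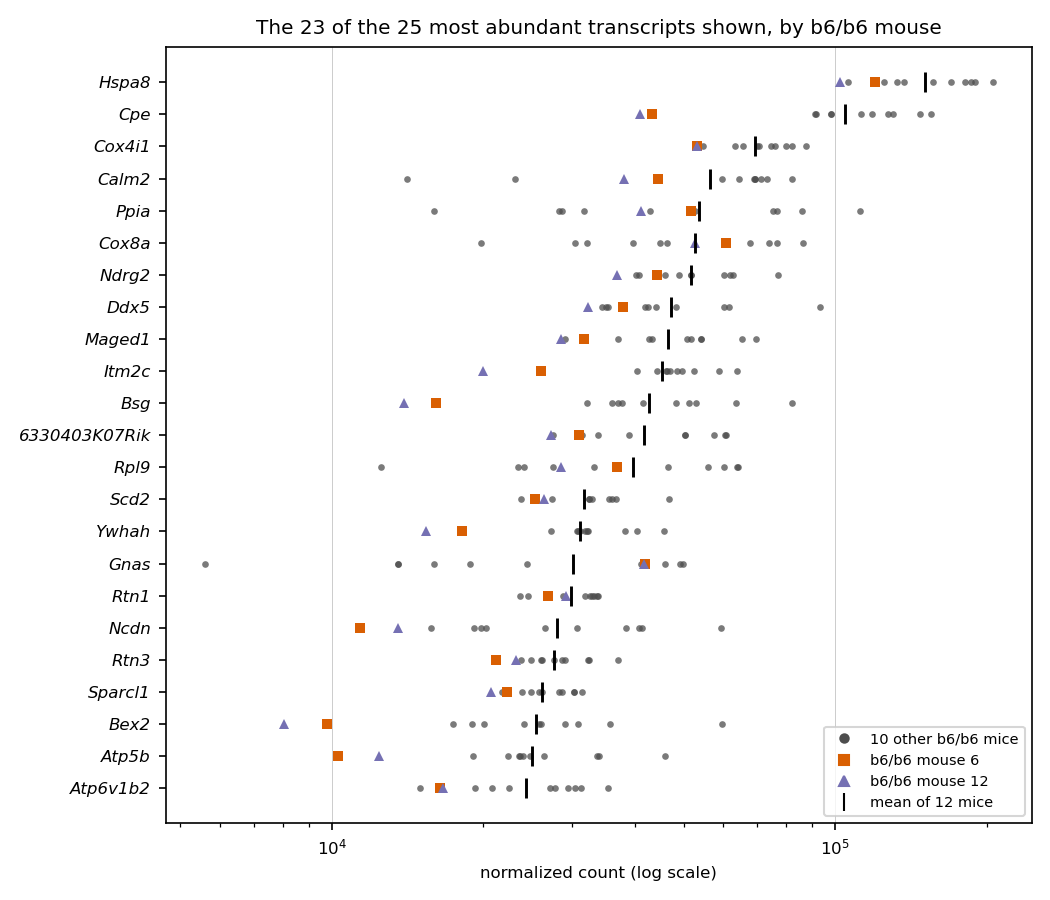
Normalized counts (log scale) of 23 of the 25 most abundant transcripts in each of 12 *b6/b6* mice, with mice 6 and 12 marked by a square and a triangle and the mean by a bar. *Hspa8* reached 205482 in its highest mouse, *Cpe* shows mice 6 and 12 apart from the other 10, and *Gnas* shows a gap between 24426 and 41186.

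The order of abundant genes was similar between animals but the list was not the same in each. Over all genes, Spearman's rho between pairs of mice was 0.837 to 0.984 with a median of 0.956, as a description of 66 pairs that share the same genes. Within each mouse, 16 to 23 of the 25 genes were also among its own 25 most abundant. The genes found there in all 12 mice numbered 7, namely *Hspa8*, *Cpe*, *Cox4i1*, *Ndrg2*, *Ddx5*, *Maged1* and *6330403K07Rik*. In total 58 genes entered the 25 of at least 1 mouse. In mice 6 and 12 the 25 genes held 10.3% and 9.17% of counts, the lowest shares of the 12, and 9 of the 25 fell below all other mice in both animals. Among all genes 17.58% did so. With libraries scaled to their total of tags, the number of such genes fell from 2461 to 1587. Without mice 6 and 12 the 25 most abundant genes were the same 25.

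Spread between mice went beyond tag counting for nearly all genes. The median CV over genes was 0.375, with quartiles of 0.269 and 0.525, and without mice 6 and 12 it was 0.306, with quartiles of 0.218 and 0.426. The index of dispersion, a chi-square test of the recovered tags of each gene against Poisson counting with Benjamini-Hochberg adjustment, called 13623 of 13997 genes, 97.3% of those tested. With this share as the background a call says little of a single gene. In genes with a mean below 10 the median CV was 0.602 where counting alone gave 0.352, and in genes from 1000 to 3000 it was 0.299 where counting gave 0.025. Spread between mice thus levelled off near 0.30 from a mean of about 300 upwards. For this reason each gene was also given a relative CV, the log2 of its CV minus the median over the genes nearest in mean, 100 on either side, and the genes with the highest 10% and the lowest 10% of this measure were marked (10.0% and 9.99% of genes by construction, over 12 and over 10 mice alike).

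**Figure D2:**
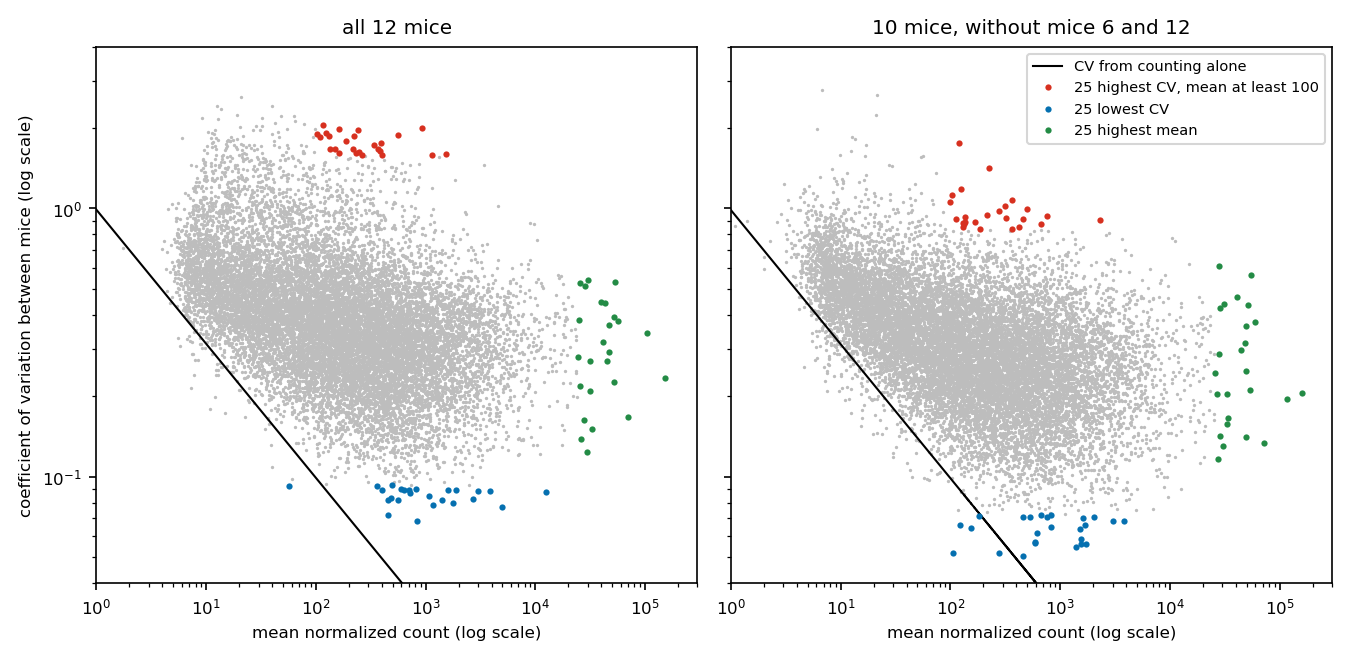
CV between mice against mean normalized count (both axes on log scales) for all genes, with 12 mice on the left and without mice 6 and 12 on the right; the line is the CV from counting alone. Nearly all genes lie above the line, the 25 lowest CVs over 12 mice lie at or below 0.0933, and the 25 highest with a mean of at least 100, chosen anew in each plot, lie from 1.58 to 2.05 on the left and from 0.837 to 1.76 on the right.

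The 25 genes with the lowest CV had means of 57.3 to 12524 with a median of 826, beside 155.6 over all genes. Among them *Tpd52l2*, a tumour protein D52 family member, ran from 395 to 522 (CV 0.072). *Canx*, which encodes the endoplasmic reticulum chaperone calnexin, had 4241 to 5482 with a mean of 5002 ± 384 (CV 0.077). Mouse 12 was the highest for *Canx* and within the range of the other mice for *Tpd52l2*, and mouse 6 was within that range for both genes. Without these mice the CVs were 0.071 for *Tpd52l2* and 0.075 for *Canx*.

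Other members of the 25 are grouped here by what they are known to do. Chromatin and transcription genes were *Supt16h* (CV 0.078), a subunit of the FACT histone chaperone, *Cebpg*, *Nrip2*, *Zfp236* and *Rsf1*, and *Hnrnpu* (0.088) encodes a nuclear RNA-binding protein. Membrane traffic and the endoplasmic reticulum gave *Copg*, a coat protein of vesicles, *Lnp* and *Jkamp*, and the membrane protein gene *Itm2b* was the most abundant of the 25 at 12524 ± 1098. Carriers and other proteins of mitochondria and lysosomes were *Slc25a23*, *Letm1* and *Dirc2*. Protein turnover, folding and synthesis were represented by *Adrm1*, a ubiquitin receptor of the proteasome, *Ube2d2a*, the prefoldin subunit *Pfdn4* and *Rps15a*. The list also held *Dazap2*, *Ppfia1*, the kinase *Mark1*, the insulin receptor (*Insr*, 826 ± 74.2, CV 0.090) and the pseudouridine synthase gene *Trub2*. *Trub2* had a mean of 57.3 and a CV of 0.092, below the 0.131 from counting, and was the member whose spread was not called above counting error. The last gene within the list was *Rsf1* and the first outside *Armc8*, both with a CV of 0.0933.

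Which genes were steadiest depended on the libraries and on their scaling. Only 38 genes had a CV of at most 0.1, and this count was 178 without mice 6 and 12, 60 without mouse 1, 70 without mouse 4 and 66 without mouse 12. Of the 25 steadiest genes, 14 were kept when mouse 4 or mouse 12 was left out and 4 without the pair, among them *Tpd52l2*, *Hnrnpu* and *Cebpg*. With libraries scaled to their total of tags, 2 of the 25 were kept.

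Without mice 6 and 12 the lowest CV was that of *Mpg*, a DNA repair glycosylase gene, at 0.051. In those 10 mice *Mpg* ran from 422 to 492, while mice 6 and 12 had 235 and 199. *Pkm*, pyruvate kinase of glycolysis, showed the same steadiness with the opposite displacement, with 1744 to 2207 in the 10 mice (CV 0.071) and 4082 and 5086 in mice 6 and 12. Others in this list were the growth regulator gene *Tsc1* (0.066), the splicing factor gene *Srsf1* (0.056), the actin-related *Actr3* (0.068), the nuclear receptor gene *Nr2c2* (0.055) and *Mfn2* (0.072), which encodes a protein of mitochondrial fusion.

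Over 12 mice the largest CVs belonged to transcripts that were high in mice 6 and 12. Without a minimum mean, *Tuba1a*, an alpha tubulin gene, led with a CV of 2.61. Its tags were read at 0 to 2.46 normalized counts in 10 mice and at 61.7 and 183.8 in mice 6 and 12. It shares most of its sequence with *Tuba1b*, which also appears in the list (CV 1.97), and tags of such near copies may be split between them. The full tag of *Tuba1a* also occurs in 10 other genes, so its counts are uncertain. *Gpr52* (2.42), *Rpl10* (2.41), *Pisd* (2.34), *Fabp4* (2.24) and *Rnd2* (2.22) followed, and the full tag of *Rpl10* also occurs in 9 other genes. Of the 23 genes of this list matched to a transcript, 7 had a full tag held by another gene, beside 412 of all 13112 matched genes. In 22 of the 25 genes of this list mice 6 and 12 both exceeded the other 10 mice, beside 22.4% of all genes. The ranking used these same values, so this count is a description only. The exceptions were *Fabp4*, the adipocyte fatty acid binding protein gene, with 153.5 in mouse 2 and at most 17.6 elsewhere, *Prm2*, a sperm protamine gene, at 59.6 in mouse 8 and 43.0 in mouse 6, and *Gh*. The gene just within this list was *l7Rn6* (1.95) and the gene just outside was *Tbcd* (1.93). Over the 10 mice and with no minimum mean, the 25 largest CVs ran from 1.29 to 2.77 and shared 4 genes with the list over 12. *Prm2* led them, followed by *Gh* (2.65), *Fabp4* (2.24) and the albumin gene *Alb* (1.98).

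Among genes with a mean of at least 100, mice 6 and 12 held the highest values in 24 of the 25 most variable, all but *Gbx2*. *Olfm2*, a secreted olfactomedin, ran from 6.79 to 31.1 in the 10 mice and had 437 and 759 in mice 6 and 12 (CV 2.05 over 12 mice, 0.44 over 10). *Rps4x*, a protein of the small ribosomal subunit, had 106 to 298 in the 10 mice and 2844 and 6309 in the pair (CV 2.003 over 12 mice, 0.29 over 10). *Tufm*, the mitochondrial translation factor, had 15.4 to 38.5 against 454 and 605. The groups did not overlap for any of these 3 genes. The 25 genes included 4 of the respiratory chain and ATP synthase, *Atp5e* (CV 1.88), *Ndufa4* (1.76), *Atp5h* (1.66) and *Ndufs1* (1.58). Others were the kinases *Mast3* (1.97) and *Map2k1* (1.59), the acetyltransferase gene *Myst2* (1.86), the translation factor gene *Eif4g1* (1.61), the glutathione transferase gene *Gstp1* (1.66, with a tag that 2 other genes also hold), the phosphatidylinositol synthase gene *Cdipt* (1.73) and *Ist1* (1.86), which encodes a protein of endosomal sorting. Both mice exceeded all others in 24 of the 25, compared with 22.4% of all genes. The ranking by CV used these same values, so this count describes the list and tests nothing. The last gene within the list was *Ndufs1* at 1.579 and the next *Atp9a* at 1.575. Of the 626 genes with a CV of at least 1 (4.47%), 574 had their highest value in mouse 6 or 12, and without this pair 85 genes reached a CV of 1. Among all genes, 23.7% had their highest value in mouse 12 and 8.40% in mouse 6.

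The position of the tag differed between these transcripts and the rest, a feature that the ranking did not use. Of the 25 genes with the highest CV and a mean of at least 100, 23 were matched to an annotated transcript, and in 11 of them (47.8%) the last CATG lay fewer than 27 bases from the end, as in the sequences of *Rps4x*, *Tufm* and *Ist1* shown above. Among all matched genes with a mean of at least 100 this was so for 475 of 7973 (5.96%). None of the 25 most abundant and none of the 23 matched genes of the 25 steadiest had so short an end. Among matched genes with a mean of at least 10000 this was so for 2 of 109 (1.83%). In lists of this size 0 is thus near the background. Over all matched genes, the 906 with fewer than 27 bases after the start of the last CATG had a median CV of 0.481, compared with 0.345 to 0.430 in the bins of greater distance. Mice 6 and 12 both exceeded the other mice in 47.1% of these 906 genes and in 14.7% to 29.2% of the genes of the other bins. Without mice 6 and 12 the median CV of the 906 genes was 0.329, within the 0.285 to 0.355 of the other bins. These are descriptions over annotated transcripts, in which the end used in hypothalamus may differ.

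**Figure D3:**
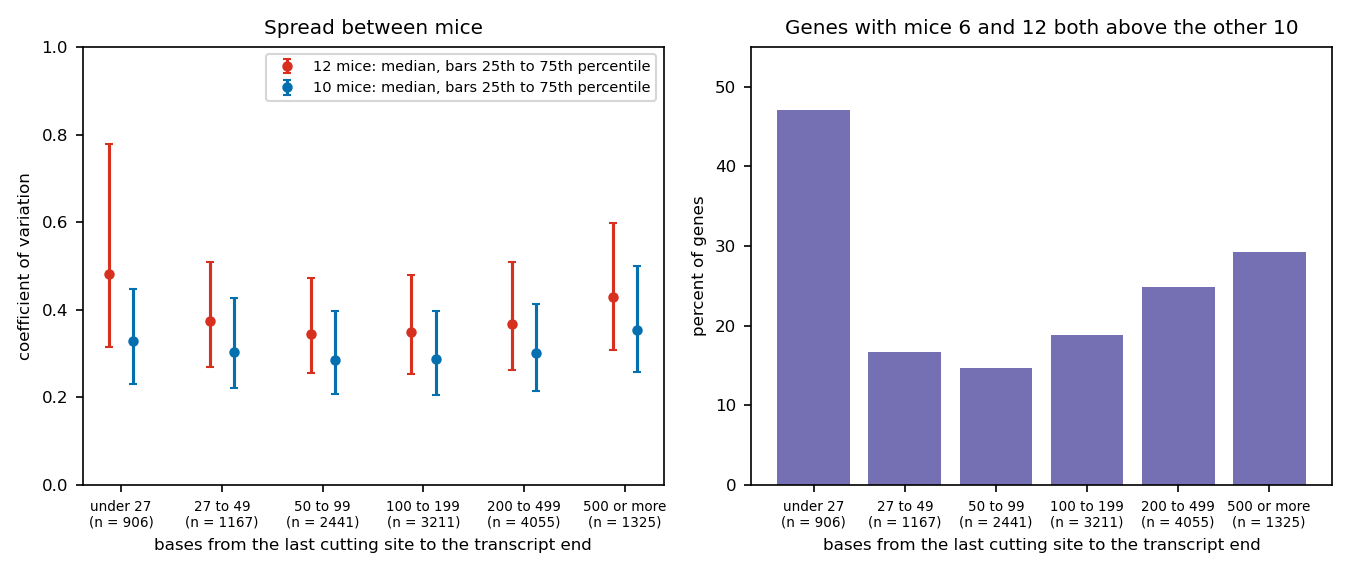
Genes by the number of bases from the start of the last CATG to the end of the annotated transcript. The left plot gives the median CV (points) with the 25th to 75th percentile (bars) for 12 and for 10 mice, 0.481 and 0.329 in the bin under 27 bases, and the right plot the percent of genes in which mice 6 and 12 both exceeded the other 10, 47.1% in that bin.

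Without mice 6 and 12 the most variable transcripts were another set, and of the 25 with a mean of at least 100 only *Gbx2* was shared with the list over 12 mice. *Gbx2* encodes a homeobox factor of the developing thalamus. It ran from 6.14 to 660 in the 10 mice with a CV of 1.76, and mice 5 and 7 had 660 and 322 while no other mouse exceeded 77.5. *Prkcd*, a protein kinase C that marks thalamic relay neurons, was high in the same 2 animals, with 323 in mouse 5 and 541 in mouse 7 and 81.0 to 137 in the others. *Acbd3*, a Golgi protein, had 1098 in mouse 9 and at most 240 elsewhere. *Uchl1*, a deubiquitinase of neurons, was highest in mouse 4 at 7847 and lay between 871 and 3624 in the others (CV 0.91 over 10 mice).

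Some of these genes were low or high in several animals at a time. *4930470H14Rik* had 8.99 to 15.7 in mice 2, 4, 8 and 10 and 161 to 1088 in the other 8 mice. *A630089N07Rik* was at 44.2 to 88.1 in the same 4 mice and at 125 or more elsewhere, and *Gm6182* at 29.4 to 52.8 and at 128 or more. *Mterfd3*, which encodes a regulator of mitochondrial transcription, was at 24.4 to 113.9 in mice 1, 2, 4, 5, 8 and 10 and at 410 to 775 in mice 3, 6, 7, 9, 11 and 12, the same separation of animals as for *Gnas*. Within study number sets the CV of *Mterfd3* was 0.52, compared with 0.87 over all 12 mice. *Plagl1*, an imprinted zinc finger gene, was at 177 to 264 in mice 3, 7, 9 and 11, at 546 and 535 in mice 6 and 12, and at 12.4 to 66.1 in the others.

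**Figure D4:**
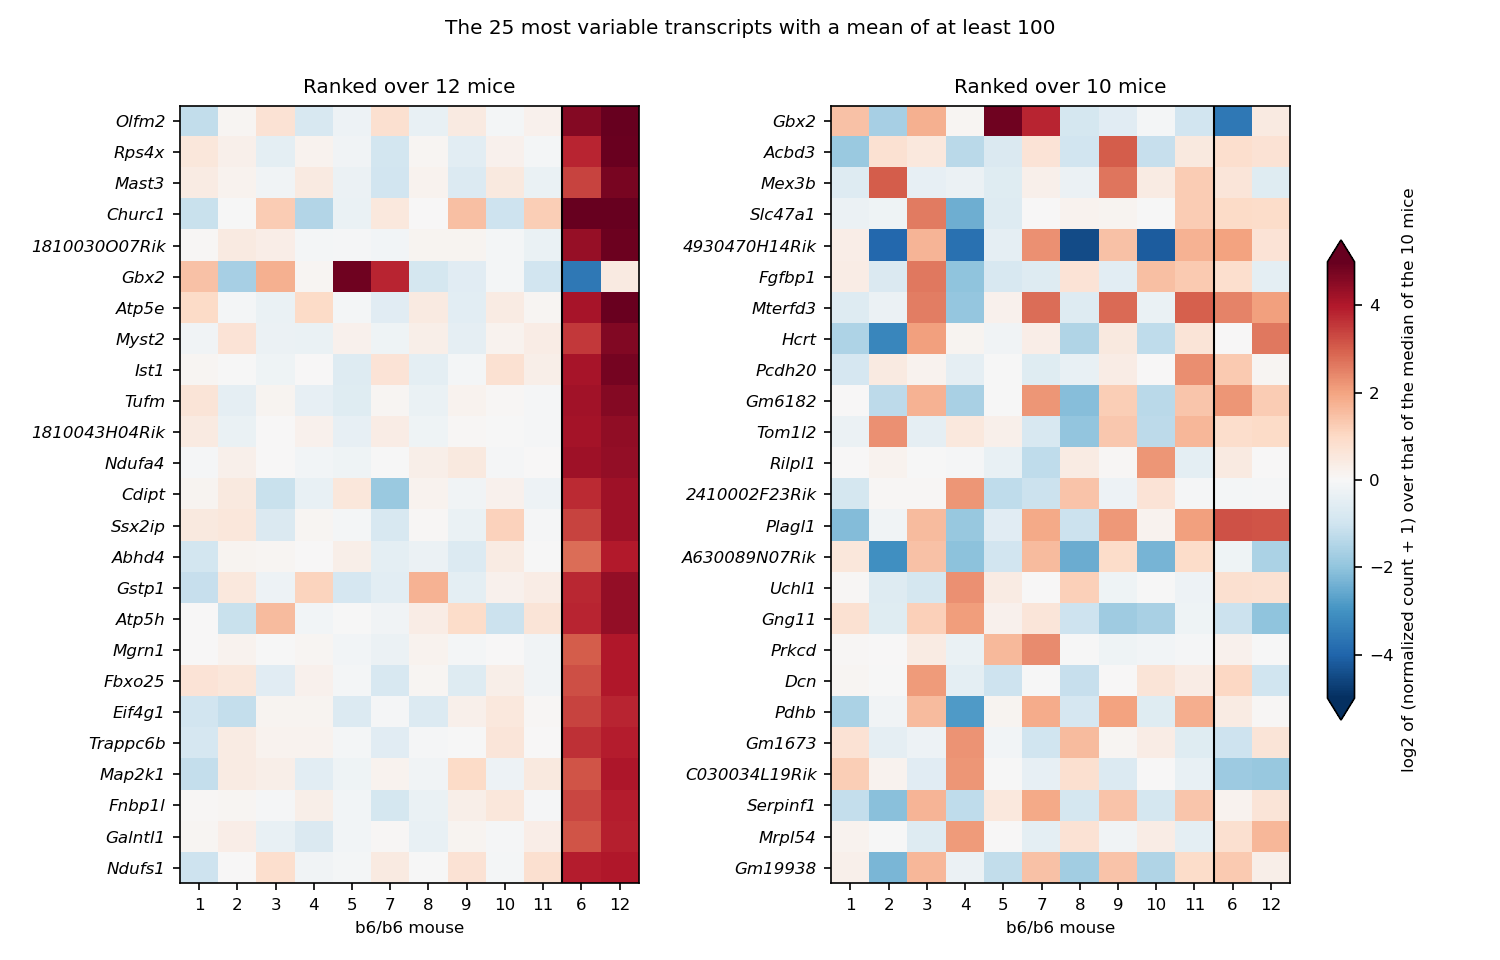
The 25 most variable transcripts with a mean of at least 100, ranked over 12 mice (left) and over 10 mice (right), by mouse; colour is the log2 of normalized count plus 1 over that of the median of the 10 mice, and colours stop at 5 in either direction. On the left 24 genes are high in mice 6 and 12, and on the right the high values are scattered over mice, with *Gbx2* at 660 in mouse 5.

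The peptide genes of the hypothalamus varied more between mice than most genes of their abundance. Their median CV was 0.583, beside 0.375 over all genes, and 10 of the 26 were in the top 10% of relative CV and 0 in the lowest, beside 10.0% and 9.99% of all genes. Over the 10 mice the counts were 13 and 1. Spread exceeded counting error in all 26, beside 97.3% of all genes. In CV the 26 genes ran from 0.23 for *Nts* (neurotensin) to 1.63 for *Npy*.

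Of 2 peptides of the lateral hypothalamus that promote feeding, *Hcrt* was among the more variable. *Hcrt*, the orexin precursor, had a lowest value of 44.2, a median of 457 and a highest of 2704 (CV 1.15). Mouse 12 was the highest and mouse 3, at 1774, the next, and mouse 2 the lowest, so that its spread did not come from the pair alone, and without mice 6 and 12 its CV was 0.998. *Pmch*, the precursor of melanin-concentrating hormone and the most abundant of the peptides, ran from 3321 through a median of 7661 to 22154 (mean 8479 ± 5266). Its highest value was also in mouse 12 and its lowest also in mouse 2.

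The arcuate peptides of opposite action on feeding had different spreads. *Pomc*, the precursor of the satiety signal alpha-MSH, ran from 521 through 1858 to 5589 (CV 0.70), with mice 1, 2, 4, 8 and 10 at 3400 to 5589 and the other 7 at 2105 or less. Study numbers were 288 to 364 in the mice with high *Pomc* and 27 to 251 in the others, except mouse 5 at 337. *Agrp*, the melanocortin antagonist that promotes feeding, ran from 319 to 1655 (CV 0.47). *Cartpt* had a CV of 0.23 and *Ghrh*, the growth hormone releasing hormone, one of 0.40. *Npy*, which is made in the same cells as *Agrp*, had 8.62 to 38.8 in 10 mice and 392 and 278 in mice 6 and 12, and its CV was 0.44 without this pair. The last CATG of its annotated transcript is 13 bases from the end, as shown above, and its mean of 75.8 was below that of *Agrp*, at 794.

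Neurosecretory and releasing hormones came from few tags in some mice. *Avp* and *Oxt*, vasopressin and oxytocin of the magnocellular nuclei, ran from 47.0 to 577 (CV 0.57) and from 71.4 to 753 (0.64). *Trh*, thyrotropin releasing hormone, ran from 297 through 666 to 3400 (CV 0.82), with mice 3, 7, 9 and 11 at 1986 to 3400 and all others at 925 or less. The mice with high *Trh* had study numbers of 41 to 251, while mice 6 and 12, with 42 and 27, were not high. The part of the study number in the spread of *Pomc* and *Trh* was not tested. *Crh* averaged 21.1 (CV 0.82), *Gnrh1* 44.7 (0.71) and *Kiss1* 14.2 (0.77). For *Kiss1* counting alone gave a CV of 0.26, and mouse 12 had 0 tags, which allows up to 3.26 normalized counts (3 tags), for counting error only. Its full tag also occurs in 2 other genes, so its counts are uncertain.

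Other neuropeptides differed in spread. The CV was 0.26 to 0.63 for galanin (*Gal*, mean 1471, CV 0.33), the tachykinins *Tac1* (1188, 0.36) and *Tac2* (436, 0.26), *Penk* (2150, 0.47), *Vip* of the suprachiasmatic nucleus (158, 0.59) and *Cck* (471, 0.63). *Adcyap1*, which encodes PACAP, and *Nucb2*, the nesfatin precursor, had CVs of 1.38 and 0.70 over 12 mice and of 0.22 and 0.22 over 10, since both were above all other animals in mice 6 and 12. The granule proteins were *Scg2* (5827, 0.54), *Chga* (1458, 0.53), *Chgb* (1839, 0.25) and *Vgf* (723, 0.47), all of which package hormones for release. *Chgb* had a CV of 0.11 without mice 6 and 12 and was then the member in the bottom 10%.

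Promoters of these genes were compared with those of the other ranked genes, using RefSeq sequences (GRCm38.p6) from 250 bases before to 50 after the start. The letters TATAAA, with their first base 40 to 20 bases before the start on the sense strand, were found in 4 of the 21 peptide genes in the table with a sequence (19.0%), *Hcrt*, *Pmch*, *Pomc* and *Vip*, and in 1.18% of the 9960 ranked genes with one and 2.22% of all 27025 promoters. On either strand anywhere in the window, TATAAA was found in 5 of these 21 peptide genes (23.8%), 0 of 15 of the steadiest genes and 6.96% of the ranked genes. With 15 genes, 0 is near the share of all ranked genes. The most abundant genes had it in 5 of 15 (33.3%). For the most variable with a mean of at least 100 it was 1 of 19 over 12 mice (5.26%) and 4 of 15 over 10 (26.7%). With no minimum mean these were 2 of 12 (16.7%) and 6 of 14 (42.9%). The median ratio of observed to expected CpG was 0.552 in peptide genes, 0.906 in the steadiest and 0.754 in all ranked genes. In the top and bottom 10% of relative CV that ratio was 0.762 and 0.765 over 12 mice and 0.739 and 0.796 over 10. TATAAA was found anywhere in the window in 9.07% and 6.82% of them over 12 mice and in 9.67% and 6.19% over 10. As an example, the 100 bases before the start are given for *Hcrt*, among the most variable peptides, with TATAAA in capitals, and for *Canx*, among the steadiest genes, both on the minus strand and 5′ to 3′.
*Hcrt*, chr11:100762932-100763031: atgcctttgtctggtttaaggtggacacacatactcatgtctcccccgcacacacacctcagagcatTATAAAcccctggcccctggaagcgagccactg
*Canx*, chr11:50325674-50325773: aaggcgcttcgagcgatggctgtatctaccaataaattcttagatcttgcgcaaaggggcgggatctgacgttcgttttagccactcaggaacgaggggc
In *Hcrt* the first base of TATAAA is 33 bases before the start, and these letters do not occur in the 100 bases shown for *Canx*.

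Genes often used as references for RNA level differed widely in spread. Of the 20 in the table, 2 were in the bottom 10% of relative CV, *Canx* and *Ywhaz* (mean 18165, CV 0.15), and 4 in the highest, *Rplp0* (1.45), *Polr2a* (1.69), *Gusb* (0.99) and *B2m* (0.57). *Gapdh* was not analysed here. The cytoskeletal references *Actb* and *Tubb5* had CVs of 0.34 and 0.30, and the metabolic ones *Hprt* 0.23, *Pgk1* 0.25, *Sdha* 0.27, *Cyc1* 0.34 and *Atp5b* 0.38. *Tbp*, the TATA-binding protein, had a CV of 0.26, *Eif4a2* 0.38, *Tfrc* 0.40, *Eef2* 0.47 and *Rpl13a* 0.58.

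*Ppia* was the most abundant reference gene and ran from 15954 in mouse 4 through a median of 47350 to 112244 in mouse 7 (CV 0.53, and 0.57 without mice 6 and 12). Its full 27-base tag also occurs in 9 other genes, so its counts are uncertain. *B2m*, the light chain of class I histocompatibility molecules, ran from 578 in mouse 4 to 4201 in mouse 3. For *Rplp0*, a ribosomal stalk protein, the 10 mice had 39.3 to 159 while mice 6 and 12 had 834 and 1258. The full tag of *Rplp0* also occurs in 3 other genes, so its counts are uncertain as well. *Tbp* had a CV of 0.11 without the pair, in which it was low. Over 10 mice the top 10% held 4 of the 20 (*B2m*, *Ppia*, *Tfrc* and *Polr2a*) and the bottom 10% held 3 (*Canx*, *Ywhaz* and *Tbp*).

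**Figure D5:**
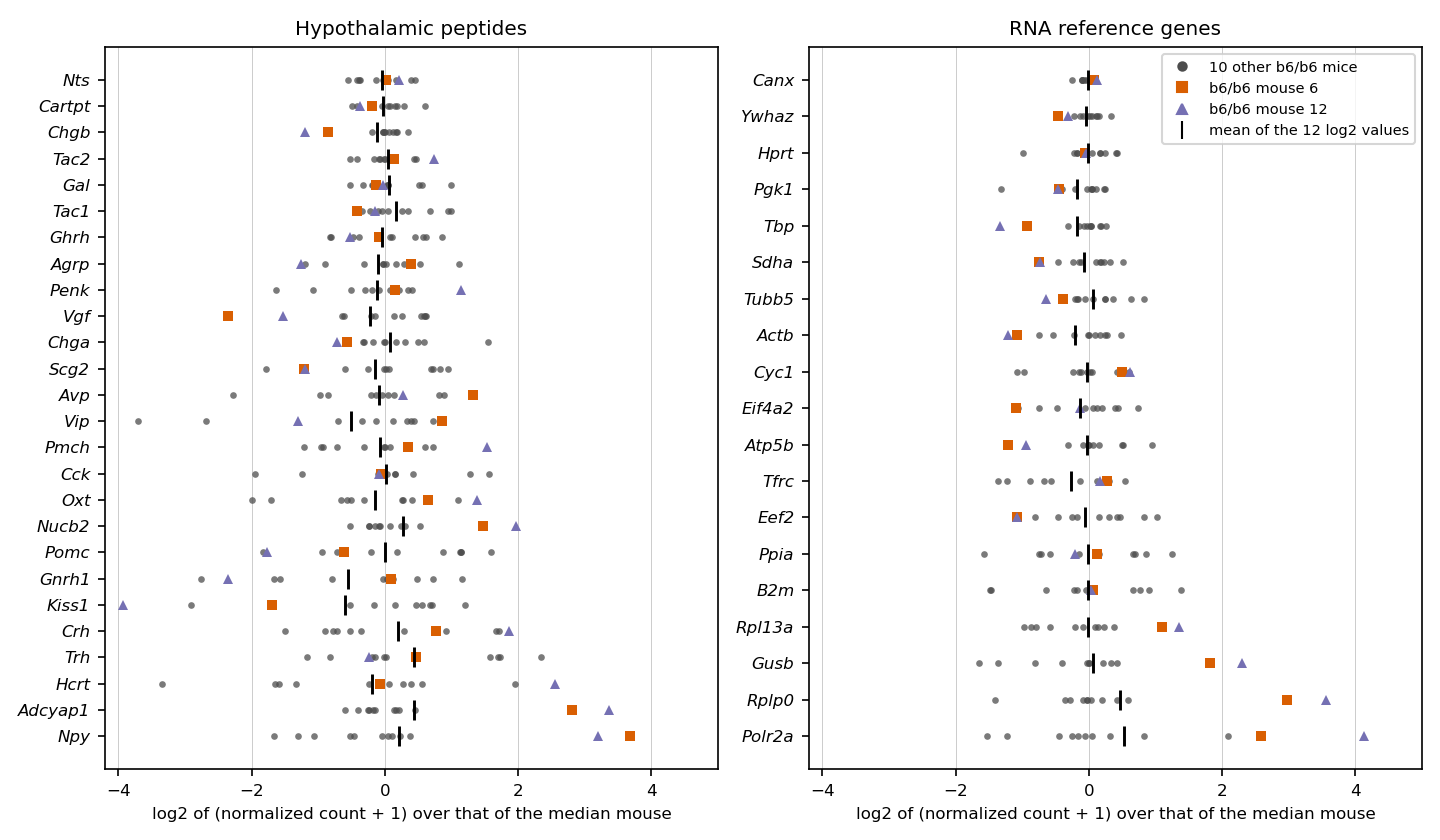
Values of 26 peptide and granule genes (left) and 19 of 20 reference genes (right) in each of 12 *b6/b6* mice as the log2 of normalized count plus 1 over that of the median mouse, ordered by CV over 12 mice; a bar marks the mean of the log2 values. *Canx*, at the top right, had 4241 to 5482 normalized counts in all mice, and *Npy*, at the bottom left, stands out in mice 6 and 12.

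Markers of tissue next to the hypothalamus moved in single animals. All 12 thalamic markers were in the table, and 6 of them, *Gbx2*, *Tcf7l2*, *Plekhg1*, *Ramp3*, *Zic1* and *Slc17a6*, had their highest value in mouse 5, where 2.94% of all genes had theirs. Their summed normalized count ran from 7734 in mouse 9 to 14100 in mouse 5 with a median of 9483, and mouse 7 had the next highest, 13757. *Slc17a6*, the vesicular glutamate transporter of thalamus and hypothalamus alike, made up most of that sum at 5387 ± 1357. Of meningeal and fibroblast markers 11 of 12 were in the table, and 5 of these, among them *Dcn*, *Igf2* and *Mgp*, were highest in mouse 3, where 6.07% of all genes were. The sum ran from 1552 in mouse 2 to 9245 in mouse 3. It depends strongly on *Ptgds*, which had the highest mean of the 11, 2567, beside a median mean of 45.5. *Dcn*, a collagen-binding proteoglycan, had 439 in mouse 3 and at most 208 elsewhere. In the 10 mice, 9 of the 11 were in the top 10% of relative CV.

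Pituitary genes had the most extreme spread of the lists examined by median CV, 1.29 over the 6 of 14 in the table. *Gh*, growth hormone, was at 0 tags in 5 mice, at 184 in mouse 5 and 98.1 in mouse 6, and at 467 in mouse 12. *Fshb* reached 79.5 in mouse 10, at most 26.7 in the others and 0 in 3 mice, and *Cga*, the alpha subunit shared by the glycoprotein hormones, reached 73.7 in mouse 10. *Prl* was not analysed here. Among 9 cortical and hippocampal markers 2 were in the top 10%. *Slc17a7*, a transporter of cortical neurons, was at 82.3 in mouse 5 with a mean of 17.1, and *Tbr1*, a cortical factor, at 46.7 in mouse 7 with a mean of 9.34. Choroid plexus markers were low, with 8 of 13 in the table, a median mean of 67.7 and a summed count of 1202 to 2359, and of these *Kl* had a CV of 0.16. In the 10 mice the top 10% held 5 of the 12 thalamic, 5 of the 6 pituitary and 3 of the 9 cortical and hippocampal genes. The part of neighbouring tissue in the spread of other genes was not tested.

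Markers of glia and vessels were steady for some genes and spread for others. Among 15 astrocyte genes 3 were in the bottom 10% of relative CV, the glutamate transporter *Slc1a2* (mean 10926, CV 0.12), glutamine synthetase (*Glul*, 7107, 0.12) and the water channel *Aqp4* (525, 0.15), and 2 in the highest, the connexins *Gjb6* (0.64) and *Gja1* (1.14). *Apoe* was the most abundant of them at 18296. The myelin protein gene *Mbp* averaged 18460 (CV 0.42). Of 16 oligodendrocyte genes 4 were in the top 10%, *Mag*, *Plekhb1* (1.09), *Mal* (1.02) and *Ermn* (0.71), and the first 3 of these had CVs of 0.29 to 0.39 without mice 6 and 12. Among 8 precursor genes *Cspg4* was in the bottom 10% and 6 had their highest value in mouse 12, where 23.7% of all genes had theirs. Over 10 mice the top and bottom 10% held 1 and 3 of the astrocyte genes, 4 and 0 of the oligodendrocyte genes, and 0 and 2 of the precursor genes.

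*P2ry12*, a receptor of resting microglia, averaged 174 with a CV of 0.18, whereas *Tyrobp* had a CV of 1.08. The 15 microglial genes had 1 member in the top 10% and 3 in the bottom 10%. Of 17 vessel genes *Itm2a* and the angiopoietin receptor *Tek* were in the bottom 10% (0.12 and 0.15), and 3 were in the top 10%, among them the transporter *Slco1a4* (1.05). Ependymal cells and tanycytes, which line the third ventricle, had 2 of 8 genes in the top 10%, *Foxj1* (0.71) and *Gpr50* (1.54). The red cell genes *Hba-a1* and *Hba-a2* had 66.4 to 590 and 49.8 to 417 in the 10 mice, 2616 and 2314 in mouse 6, and 771 and 886 in mouse 12. As both genes hold the same tag, their separate counts are uncertain. Over the 10 mice 2 microglial, 2 vessel and 1 ependymal gene were in the top 10%, and 3, 1 and 1 in the lowest.

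Neuronal genes common to most neurons were abundant, with a median mean of 5209 over 16 genes. *Snap25*, a synaptic fusion protein (17329, CV 0.13), *Thy1* (4253, 0.14) and *Nefm* were in the bottom 10% of relative CV, and *Uchl1* and *Nefl* (0.86) in the highest. The most abundant of them was the imprinted RNA gene *Meg3*, with a mean of 23403. Of the genes of GABA and glutamate transmission 4 of 12 were in the top 10%, *Gad1*, *Grin1*, *Gria1* and *Slc17a7*. *Grin1*, the obligate NMDA receptor subunit, had a CV of 0.71 over 12 mice and of 0.10 over 10. *Th*, the rate-limiting enzyme of dopamine synthesis, had a CV of 0.18, the lowest of the 7 dopamine and histamine genes in the table, and the dopamine transporter gene *Slc6a3* the highest, 0.83. Of 13 hypothalamic transcription factor genes, 1 was in the top 10%, *Nkx2-4* (1.21), and *Isl1* had both the highest mean, 520, and the lowest CV, 0.25. Over 10 mice 5 of these 13 were in the top 10%, *Nkx2-1*, *Six3*, *Six6*, *Lhx6* and *Foxb1*, and *Sim1* was in the lowest. Striatal markers had 1 of 10 in the top 10%, the dopamine receptor gene *Drd2* (1.14), and 0 over the 10 mice. In those mice the top 10% held 2 of the general neuronal genes, 3 of GABA and glutamate transmission and 2 of dopamine and histamine neurons.

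Members of large protein complexes were counted in the same way. Of 31 nuclear genes of oxidative phosphorylation, 5 were in the bottom 10% of relative CV, *Atp5a1* (0.12), *Atp5l* (0.14), *Uqcrq* (0.14), *Uqcrc1* (0.14) and *Cox4i1*, and 9 in the highest, from *Atp5g3* (0.62) to *Ndufa4* (1.76). In mice 6 and 12 both values were above all others for 7 of the 31 genes and below all others for 12, beside 22.4% and 17.58% of all genes. Without these mice 8 were in each 10%, and *Ndufa4*, with 79.6 to 131 in the 10 mice, moved from the highest to the lowest. Of 33 cytosolic ribosomal protein genes 10 were in the top 10%, led by *Rpl10* (2.41), and 1 in the lowest, *Rps24*, and without mice 6 and 12 these counts were 5 and 3. *Fau* was the most abundant ribosomal gene, at 22938. Ribosomal protein genes have many processed copies in the genome, so their counts are uncertain where tags are shared.

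The proteasome, which degrades tagged proteins, had 4 of 26 genes in the top 10% and 2 in the lowest, *Psmb4* (9573, CV 0.13) and *Psmd2* (0.17). The vacuolar proton pump had 4 and 3 of 15, with *Atp6v1e1* steady at 0.12. For glycolysis no gene of 14 was in either 10% over 12 mice, and the CVs ran from 0.21 (*Pfkl*) to 0.49 (*Aldoa*). The heat shock and chaperone genes had 1 of 20 in the top 10%, the inducible *Hspa1a* (94.4, CV 0.68), which shares sequence with a neighbouring copy, and 2 in the lowest, the endoplasmic reticulum chaperone *Hspa5* (10242, 0.13) and *Pdia6*. Over 10 mice 4 chaperone genes were in the top 10%, *Hspa1a*, *Hsp90aa1*, *Hspb1* and *Hspe1*, and 0 in the lowest. In the same mice the top and bottom 10% held 3 and 1 of the proteasome genes, 1 and 2 of the proton pump and 1 and 1 of glycolysis. No mitochondrially encoded gene was in the table.

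Genes that respond to activity, hormones and time of day were close to the spread of other genes over 12 mice. None of 20 immediate early genes was in either 10%, and their CVs ran from 0.26 for *Jun* to 0.64 for *Ppp1r15a*. *Fos*, the usual marker of neuronal activation, had 56.4 to 183 with a median of 92.4 (CV 0.41). Over the 10 mice the top 10% held 4 of the 20, including *Arc* (0.68), and the lowest 2. Of 14 glucocorticoid-responsive genes, 2 were in the top 10%, with *Zbtb16* the most variable (0.74) and *Cdkn1a* the least (0.27). Of 15 clock genes, *Cry1* (0.65) and *Nr1d2* (0.65) were in the top 10% and *Arntl*, the core activator, in the lowest (0.17). Of 17 interferon and antigen presentation genes 5 were in the top 10%, among them *Cd74* (0.69) and *H2-D1* (1.61), and 0 in the lowest. Over 10 mice the top and bottom 10% held 2 and 0 of the glucocorticoid, 1 and 2 of the clock and 5 and 0 of the interferon genes.

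The Y-linked transcripts were checked for male tissue. *Ddx3y* had 1294 to 3103 in the 12 mice (CV 0.26), *Uty* 68.5 to 634, *Kdm5d* 2.26 to 97.2 and *Eif2s3y* 15.0 to 68.5. The full tag of *Kdm5d* also occurs in 4 other genes, so its counts are uncertain. *Xist*, the RNA of the inactive X, had 2.46 to 50.5 with a median of 13.5, and mice 6 and 12, at 50.5 and 22.8, were above the others.

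Corrected for abundance, the extremes were much the same genes. Among genes with a mean of at least 100, the 10 lowest relative CVs belonged to 8 of the steadiest genes and to *Sfmbt1* and *Ankrd28*, with *Lnp* at −1.87 the last within and *Jkamp* at −1.84 the first outside. The 10 highest were led by *Rps4x* at 2.74 and *Atp5e* at 2.69, with *1810043H04Rik* at 2.43 the last within and *Ndufs1* at 2.42 the first outside. All 10 had both mice 6 and 12 above the others, beside 22.4% of all genes, in values that the ranking used. *Eef1d*, a translation elongation factor subunit, was the member outside the list by CV. Over all genes, the CV in the 5 mice with low study numbers and that in the 7 with high ones were related by a Spearman's rho of 0.311, while their means were related by one of 0.961, as a description over genes. Mice 6 and 12 are both among the 5 with low numbers.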

How the data were processed

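Hypothalamic RNA of each mouse was made into 1 SAGE-Seq library with 27-base tags. The authors mapped tags to RefSeq mRNA and GRCm38/mm10, counted hits per gene and scaled each library with a DESeq size factor; the deposited signal values are these normalized counts. The lowest mean over 24 mice was 6.03, so low genes are absent. Columns with *P*-values, fold changes and log2 fold changes from the study's own comparison were not used.

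One row was kept per gene. Each value was a whole multiple (within 0.01) of what 1 tag is worth in its library, so tag hits were recovered for all values. Mean, SD and CV were taken over 12 mice. Spread beyond counting was tested by the index of dispersion (chi-square, 11 degrees of freedom, one-sided, Benjamini-Hochberg adjustment over all genes, adjusted *P* under 0.05). Each mouse is a separate animal, and no 2 libraries agreed within counting error (lowest chi-square per degree of freedom 14.6 over 66 pairs).

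Named were the 25 genes highest in mean, lowest in CV, highest in CV and highest in CV with a mean of at least 100, the 10 extremes of relative CV at each end, and in 32 lists of pathways and cell types the extreme and the most abundant members. Peptide, reference, calmodulin and sex chromosome genes were named too. Some genes that this rule takes are not reported here. Other genes given as examples, and the rankings over 10 mice, were chosen after their values were seen. Members and lists were chosen with earlier results of these data known.

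Alternatives were other scalings (edgeR 4.0.16, R 4.3.3), spread measures, minimum means and leaving out each mouse. Python 3.11.15, pandas 2.3.3 and SciPy 1.17.1 were used. The test of spread beyond counting, the CV and the relative CV were tried on simulated counts, and the ranked lists were not. Protein lengths were not analysed here.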

Additional observations from a re-analysis of the deposited data

How the results depend on the processing

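Rankings by abundance moved little and rankings by spread moved more. Of 62 values under another scaling, spread measure, minimum mean or without mice 6 and 12, 44 stayed within the spread or within 1.5 times the reported count and 18 moved, and the cause was not tested. With libraries scaled to their total of tags, 73 genes had a CV of at most 0.1 and 2 of the 25 steadiest were kept. With the MAD over the median as the spread, 353 genes had at most 0.1, 163 had at least 1, and 2 of the steadiest and 1 of the 25 most variable with a mean of at least 100 were kept. Subtracting the counting variance gave 173 genes of at most 0.1 and kept 0 of the steadiest, as the counting variance exceeded the whole variance in 44 genes. Within study number sets these values were 67 and 14. By the SD of log2 values 15 of the most variable were kept, with a minimum mean of 20 it was 8 and with 500 it was 4. Testing only genes with a mean of at least 100 left 8263 genes with spread beyond counting, since fewer were tested. Without mice 6 and 12, which was added after seeing the data, 85 genes had a CV of at least 1 and 178 of at most 0.1, and 4 of the steadiest and 1 of the most variable were kept. Leaving out 1 mouse at a time gave 38 to 70 genes of at most 0.1, 14 to 23 of the steadiest kept (14 without mouse 4 or mouse 12) and 13 to 23 of the most variable kept (13 without mouse 12). No paired analysis was possible because a single group was described.

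Depth limits genes with a mean below 10 normalized counts, where counting alone gives a median CV of 0.352. A library holds 1 hypothalamus, so animal, dissection and library cannot be told apart.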
